A study of Rattus norvegicus with 10 samples.

Results

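The genes described here are those of the proteasome and immunoproteasome, taken as the rows of the expression table whose symbol began with Psma, Psmb, Psmc, Psmd, Psme, Psmf or Psmg and a digit, which gave 47 of 9003 genes. The 26S proteasome degrades proteins that carry ubiquitin chains. Its 20S core is a barrel of alpha and beta rings (Psma and Psmb genes), in which Psmb5, Psmb6 and Psmb7 are the constitutive catalytic subunits, and its 19S cap is built of ATPases (Psmc) and non-ATPase subunits (Psmd) that bind, unfold and deliver substrates. In immune cells and after interferon-gamma, Psmb8, Psmb9 and Psmb10 take the places of Psmb5, Psmb6 and Psmb7 in newly assembled cores to form the immunoproteasome, and the PA28 activator of Psme1 and Psme2 can take the place of the cap. The immunoproteasome supplies peptides for MHC class I presentation, and macrophages are known to carry it.

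The 47 genes comprised 7 alpha ring genes, 4 structural and 3 constitutive catalytic beta ring genes, 3 immunoproteasome catalytic genes, Psme1 and Psme2, 6 19S ATPases, 11 19S non-ATPases, 6 assembly chaperones, and the activators Psme3 and Psme4 with the inhibitor Psmf1. The other 2 were Psma3l, a paralog of an alpha ring gene, and Psmc3ip, which encodes a meiotic recombination protein and is no proteasome subunit. In the text below, the constitutive subunits are the 14 core and 17 cap genes, and the immunoproteasome genes are Psmb8, Psmb9, Psmb10, Psme1 and Psme2.

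RNA was sequenced from splenic M2 macrophages of WKY /Ncrj rats in 10 libraries. Control macrophages (n = 2) came from rats under physiological conditions. GN macrophages (n = 2) came from rats with glomerulonephritis, induced by an antibody against the glomerular basement membrane, that received no adipose-derived mesenchymal stem cells (ASCs). EV+ (n = 3) and EV- (n = 3) macrophages came from rats with the same nephritis given human ASCs whose membranes had been stained with the dye DiD, and were sorted as positive or negative for the dye, which the study read as transfer of extracellular vesicles (EVs). A DiD-negative sort does not show that a cell met no vesicle, and the donor cells were of another species than the rats. The libraries were described as biological replicates, but which animals they came from was not given, so p-values measure only the spread between these libraries.

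The libraries held between 19270515 and 26617093 reads on the listed genes, at which 3 reads corresponded to 0.113 to 0.153 CPM, the count scaled to library size. Of 14 macrophage markers, 11 were listed, with Lyz2 at 15325 to 20176 CPM, Csf1r at 5800 to 8155 CPM and Cd68 at 1163 to 1466 CPM. Adgre1 lay at 1025 to 1491 CPM, Itgam at 388 to 641 CPM and Cd14 at 95.5 to 211 CPM. The complement genes C1qa, C1qb and C1qc were low, between 1.75 and 11.2 CPM, and Mertk, Vsig4 and Marco were not listed. The macrophage markers thus did not all point the same way. The scavenger receptor Cd163 and the mannose receptor Mrc1, both widely used markers of M2 macrophages, lay between 0 and 1.81 CPM, so these M2 markers were absent or nearly so in the libraries labelled M2. The summed level of 14 natural killer and T cell markers was 791 CPM in EV- replicate 1, 114 in EV- replicate 2, 58.5 in EV- replicate 3 and 20.8 to 44.5 in the other 7 libraries, with Cd3e at 2.09 CPM or less throughout. The 4 listed B cell markers summed to 44.6 to 111 CPM and the 5 neutrophil markers to 541 to 736 CPM, nearly all of it Csf3r, while the 4 dendritic cell markers summed to 25.7 to 37.4 CPM and Hbb, the only listed erythroid marker, stayed at or below 5.25 CPM. Since the groups are bulk samples, fewer cells of a type and less RNA per cell could not be told apart.

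Interferon responses reach the immunoproteasome genes through their promoters, so the windows of 250 bases before to 50 bases after the gene start of 3 immunoproteasome genes and of the constitutive catalytic gene Psmb5 are shown (RefSeq, rat build GRCr8; the expression table was made on rn6, and the coordinates are not those of the table). Of the 5 immunoproteasome genes, only these 3 held an interferon motif (defined below) in their window. Psmb8 lay at chr20:4656982-4657281 and Psmb10 at chr19:50743243-50743542. Psme2 lay at chr15:33052702-33053001 and Psmb5 at chr15:32047330-32047629, and all 4 are read from the minus strand, 5′ to 3′. Capitals in the first 3 mark the core of the interferon-stimulated response element (ISRE, GAAA and GAAA with 2 free bases between them) and the gamma-activated site (GAS, TTCNNNGAA, which reads alike on both strands). The ISRE core of Psmb8 lies on the opposite strand, so its capitals show the reverse complement, TTTC and TTTC with 2 free bases between them. Capitals in Psmb5 mark the antioxidant response element core (TGANNNNGC).
Psmb8: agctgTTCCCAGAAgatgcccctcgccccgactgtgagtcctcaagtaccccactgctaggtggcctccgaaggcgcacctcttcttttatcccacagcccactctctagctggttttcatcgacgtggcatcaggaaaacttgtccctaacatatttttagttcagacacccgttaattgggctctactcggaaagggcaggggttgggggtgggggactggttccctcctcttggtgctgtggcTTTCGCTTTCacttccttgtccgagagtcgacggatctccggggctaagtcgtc
Psmb10: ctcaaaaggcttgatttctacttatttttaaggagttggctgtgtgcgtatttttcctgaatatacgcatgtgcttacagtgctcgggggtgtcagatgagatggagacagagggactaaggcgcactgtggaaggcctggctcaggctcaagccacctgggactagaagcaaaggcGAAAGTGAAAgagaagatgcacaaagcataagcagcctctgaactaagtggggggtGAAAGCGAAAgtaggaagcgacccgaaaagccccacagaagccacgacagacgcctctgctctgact
Psme2: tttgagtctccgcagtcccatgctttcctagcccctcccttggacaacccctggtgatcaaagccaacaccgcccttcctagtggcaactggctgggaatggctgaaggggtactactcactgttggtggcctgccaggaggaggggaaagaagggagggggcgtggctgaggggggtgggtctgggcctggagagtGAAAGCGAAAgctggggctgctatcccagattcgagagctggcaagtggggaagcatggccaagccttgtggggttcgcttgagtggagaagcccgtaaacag
Psmb5: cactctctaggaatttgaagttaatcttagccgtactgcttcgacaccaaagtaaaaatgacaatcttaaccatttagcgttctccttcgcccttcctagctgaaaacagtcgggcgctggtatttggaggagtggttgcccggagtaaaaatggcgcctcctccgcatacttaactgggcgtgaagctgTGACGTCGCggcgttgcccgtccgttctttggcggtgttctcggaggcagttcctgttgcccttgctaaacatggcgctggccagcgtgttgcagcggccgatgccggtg

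The ISRE core stood from 4 bases before the gene start to base 6 of the gene in Psmb8, from -73 to -64 and from -17 to -8 in Psmb10, and from -53 to -44 in Psme2. Psmb8 also held a GAS from -245 to -237, and Psmb5 held neither motif but an antioxidant response element core from -60 to -52. The ISRE core was found in the windows of 3 of the 5 immunoproteasome genes, in 3 of 27 constitutive subunits with a window (Psma4, Psmb3 and Psmd7), and in 3.92% of all 33469 windows. The windows of Psmb9 and Psme1 held neither ISRE core nor GAS and are not shown. The windows shown therefore do not represent all immunoproteasome genes or all constitutive subunits. The GAS was found in 1 of the 5, in 3 of the 27 and in 8.87% of all windows. The antioxidant response element core was found in 1 of the 5 (Psmb9), in 16 of the 27 (59.3%) and in 40.5% of all windows, and the CCAAT box (CCAAT) in 2 of the 5, in 14 of the 27 and in 37.5%. An NF-kB motif (GGG and CC with 5 free bases between them) was found in 3 of the 5, in 17 of the 27 and in 47.3% of all windows. These matches are descriptions of letters in a window, both strands were searched, the marked motifs do not overlap one another, and 42 of the 47 genes had a window.

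All 5 immunoproteasome genes were expressed in every library. Psmb8, which encodes the immunosubunit beta5i, measured 650 and 671 CPM in control, 700 and 692 in GN, 752, 638 and 757 in EV+, and 724, 697 and 741 in EV- macrophages. Its GN libraries lay above both controls, while the EV+ libraries spanned the range of all other groups. Psmb9, which encodes beta1i, measured 509 and 514 CPM in control, 492 and 460 in GN, 520, 403 and 483 in EV+, and 482, 427 and 494 in EV- macrophages. Psmb10, which encodes beta2i, measured 469 and 463 CPM in control, 470 and 448 in GN, 485, 407 and 480 in EV+, and 497, 447 and 468 in EV- macrophages. For both genes the lowest library was EV+ replicate 2, and the EV+ values overlapped those of the other groups.

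Psme1 and Psme2 encode the alpha and beta chains of PA28, the activator that docks on the core in place of the 19S cap. Psme1 measured 378 and 413 CPM in control, 362 and 313 in GN, 403, 321 and 370 in EV+, and 373, 333 and 369 in EV- macrophages. Psme2 measured 323 and 300 CPM in control, 321 and 316 in GN, 368, 262 and 344 in EV+, and 338, 271 and 342 in EV- macrophages. Both GN values of Psme1 were below both controls, whereas those of Psme2 lay between the controls. RefSeq lists 3 further loci named as copies of each of these genes, so reads shared with such copies could have affected the counts. No copy is listed for Psmb8, Psmb9 or Psmb10.

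The constitutive catalytic genes covered similarly narrow ranges. Psmb5, which encodes the chymotrypsin-like subunit, measured 118 and 136 CPM in control, 129 and 127 in GN, 137, 117 and 149 in EV+, and 136, 134 and 149 in EV- macrophages. Psmb6, the caspase-like subunit, measured 223 and 244 CPM in control, 220 and 226 in GN, 220, 174 and 222 in EV+, and 219, 189 and 235 in EV- macrophages. Psmb7, the trypsin-like subunit, measured 92.4 and 112 CPM in control, 97.3 and 105 in GN, 106, 88.7 and 97.8 in EV+, and 103, 88.2 and 98.7 in EV- macrophages. For Psmb5 and Psmb7 the controls spanned the GN values, and for Psmb6 the lowest libraries were EV+ and EV- replicate 2. RefSeq lists further copies of Psmb6 and Psmb7 but none of Psmb5, and CPM is not scaled to transcript length, so levels of different genes were set against each other only as ratios followed from library to library.

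**Figure D1:**
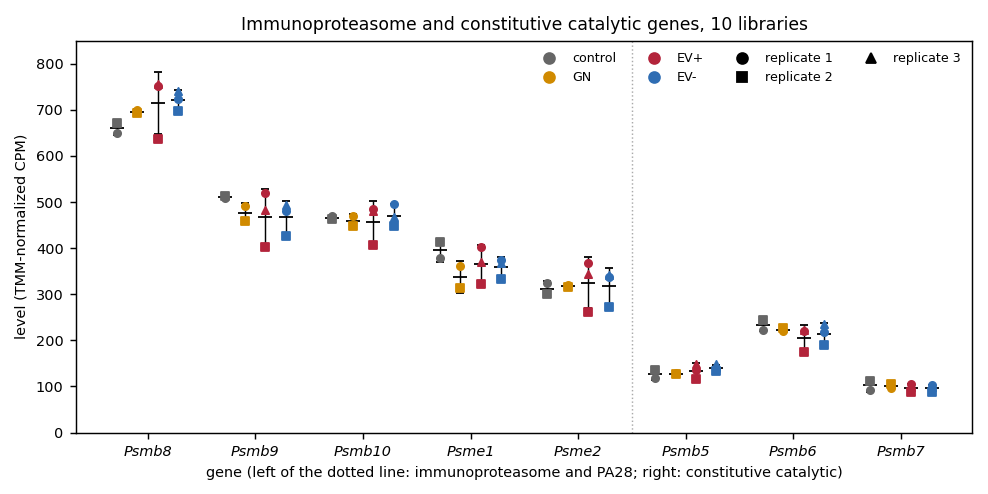
Level in TMM-normalized CPM (y axis) of the 5 immunoproteasome genes and the 3 constitutive catalytic genes (x axis) in the 10 libraries, coloured by group and shaped by replicate number, with bars for the mean and SD of each group (n = 2 or 3). Within each gene the groups overlap or nearly touch, and EV+ replicate 2 (red square) is the lowest library for Psmb8, Psmb9, Psmb10, Psme2, Psmb5 and Psmb6.

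Whether the immunosubunits were exchanged for their counterparts at the transcript level was examined with the ratio of each pair within a library, which is free of differences in library scale, although its absolute size also depends on transcript length. Control and GN libraries had a Psmb8 to Psmb5 ratio of 5.22 ± 0.412 and 5.45 ± 0.00198 (mean ± SD, n = 2 each), and EV+ and EV- libraries one of 5.35 ± 0.235 and 5.18 ± 0.176 (n = 3 each). Control and GN libraries had a Psmb9 to Psmb6 ratio of 2.19 ± 0.118 and 2.13 ± 0.145 (mean ± SD, n = 2 each), and EV+ and EV- libraries one of 2.28 ± 0.0984 and 2.18 ± 0.0775 (n = 3 each). Control and GN libraries had a Psmb10 to Psmb7 ratio of 4.61 ± 0.657 and 4.55 ± 0.4 (mean ± SD, n = 2 each), and EV+ and EV- libraries one of 4.69 ± 0.188 and 4.88 ± 0.171 (n = 3 each). The control libraries spread most for 2 of the 3 pairs, at 5.51 and 4.93 for Psmb8 to Psmb5 and at 5.07 and 4.14 for Psmb10 to Psmb7.

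None of the 12 tests of these ratios passed the threshold of 0.05. On the log2 scale the 3 ratios differed between EV+ and EV- by 0.05, 0.06 and -0.06 (two-sided exact permutation p = 0.4, 0.3 and 0.3), between GN and control by 0.06, -0.04 and -0.01 (exact p = 1, 0.667 and 1), between the 8 nephritis libraries and control by 0.03, 0.01 and 0.04 (exact p = 0.622, 0.933 and 0.711), and between the 6 ASC-treated libraries and GN by -0.05, 0.07 and 0.07 (exact p = 0.357, 0.25 and 0.25), in the order Psmb8, Psmb9, Psmb10. After adjustment over the 12 tests all lay between 0.8 and 1. Within the same-numbered pairs, EV+ minus EV- was 0.04, 0.07 and 0.02 for Psmb8 to Psmb5, 0.11, 0.03 and 0.05 for Psmb9 to Psmb6, and -0.08, -0.14 and 0.05 for Psmb10 to Psmb7. EV+ was thus the higher in 3 of 3 pairs for the first and the second ratio, but exact two-sided sign flips within pairs gave p = 0.25, 0.25 and 0.5 (0.375, 0.375 and 0.5 after adjustment over 3 tests), and 0.25 is the smallest p that 3 pairs allow. The smallest p is 0.1 for 3 against 3 libraries and 0.333 for 2 against 2, so those designs could not have passed. The other designs allow 0.0222 and 0.0357 before adjustment. After adjustment over the 12 tests none of them could have fallen under 0.05 either. The tests therefore cannot decide whether the subunits were exchanged at the transcript level. Over all 5 genes, the mean log2 level of the immunoproteasome genes exceeded that of the 14 constitutive core genes by 1.46 and 1.59 in control, 1.43 and 1.52 in GN, 1.49 to 1.56 in EV+ and 1.49 to 1.55 in EV- libraries, so the control values spanned those of the ASC-treated groups (the absolute size again depends on transcript length).

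**Figure D2:**
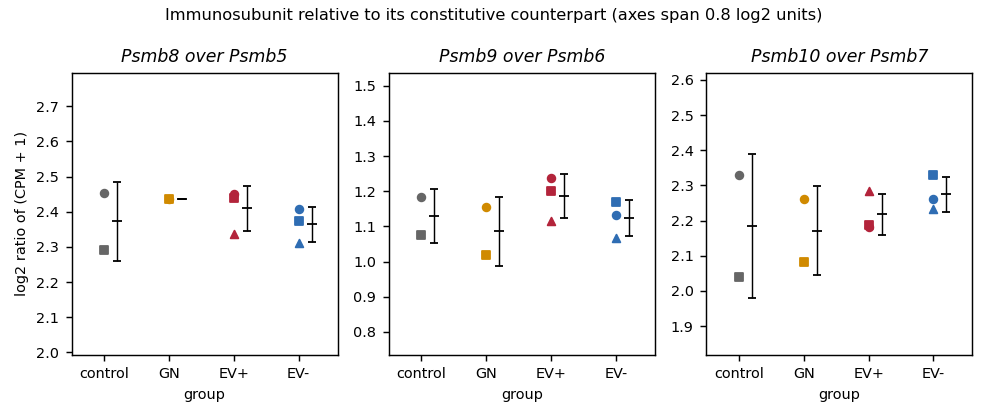
Log2 ratio (y axis, 0.8 log2 units in each panel) of each immunosubunit to the constitutive subunit whose place it takes, in the 4 groups (x axis), with 1 point per library and bars for the mean and SD. The 3 EV+ libraries overlap the EV- libraries in every panel, although EV+ is the higher of each same-numbered pair in the first 2 panels, and the 2 control libraries span nearly the whole range of the 10 libraries for Psmb10 over Psmb7.

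For the comparison of nephritis with the physiological state, none of the 47 genes passed the test in GN against control (limma with Benjamini-Hochberg adjustment, FDR under 0.1), where 1.75% of all genes did. The lowest adjusted p of any proteasome gene was 0.360. At an unadjusted p under 0.05 there were 2 proteasome genes, against 10.4% of all genes, and edgeR's quasi-likelihood and likelihood-ratio tests gave 1 each and DESeq2 2 on the recovered reads, all with 0 after adjustment. The median log2 difference was 0.03 over the 47 genes and 0.00 over all genes, and the difference was negative for 18 of the 47, against 50.1% of all genes. The median over the 47 turned to -0.03 without control replicate 1 and was 0.08 without control replicate 2. Both GN libraries were above both controls for 15 of the 47 and below for 8, where 21.9% of all genes were above and 22% below.

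Among the 5 immunoproteasome genes the folds of GN over control ran from 0.853 for Psme1 to 1.05 for Psmb8. Psme1 had the third lowest p of the 47 genes, with a log2 difference of -0.23 (SE 0.110, 95% interval of the fold 0.725 to 1.004, adjusted p = 0.497 by limma). The 95% intervals of the fold were 0.926 to 1.20 for Psmb8, 0.790 to 1.09 for Psmb9, 0.858 to 1.13 for Psmb10 and 0.827 to 1.26 for Psme2. The intervals of all 5 stayed within 1.5-fold of no difference in either direction. For Psmb5, Psmb6 and Psmb7 the folds were 1.01, 0.958 and 0.993.

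Most cap genes had positive differences in GN, none past the test. Psmc2, an ATPase of the cap's base ring, measured 174 and 176 CPM in control and 205 and 200 in GN libraries. The difference was 0.21 on the log2 scale (SE 0.0812, fold 1.15, 95% interval 1.02 to 1.30, adjusted p = 0.360 by limma). Psmd14, the deubiquitinase that strips ubiquitin from bound substrates, measured 98.9 and 118 CPM in control and 126 and 126 in GN libraries (log2 difference 0.22, adjusted p = 0.464). Its difference was 0.10 without control replicate 1 and 0.35 without control replicate 2. The log2 differences were positive for 6 of 6 ATPases, with a median of 0.09, and for 8 of 11 non-ATPases, with a median of 0.08, where 50.1% of all genes were negative, and both GN libraries lay above both controls for 5 and 6 of them, against 21.9% of all genes. The 7 alpha ring genes had 5 positive and 2 negative differences, and the 7 constitutive beta ring genes 2 positive and 5 negative ones, none of them past the test. Control replicate 1 was the lowest of all 10 libraries for 8 of the 17 cap genes, against 10.3% of all genes, and its part in these differences was not tested.

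**Figure D3:**
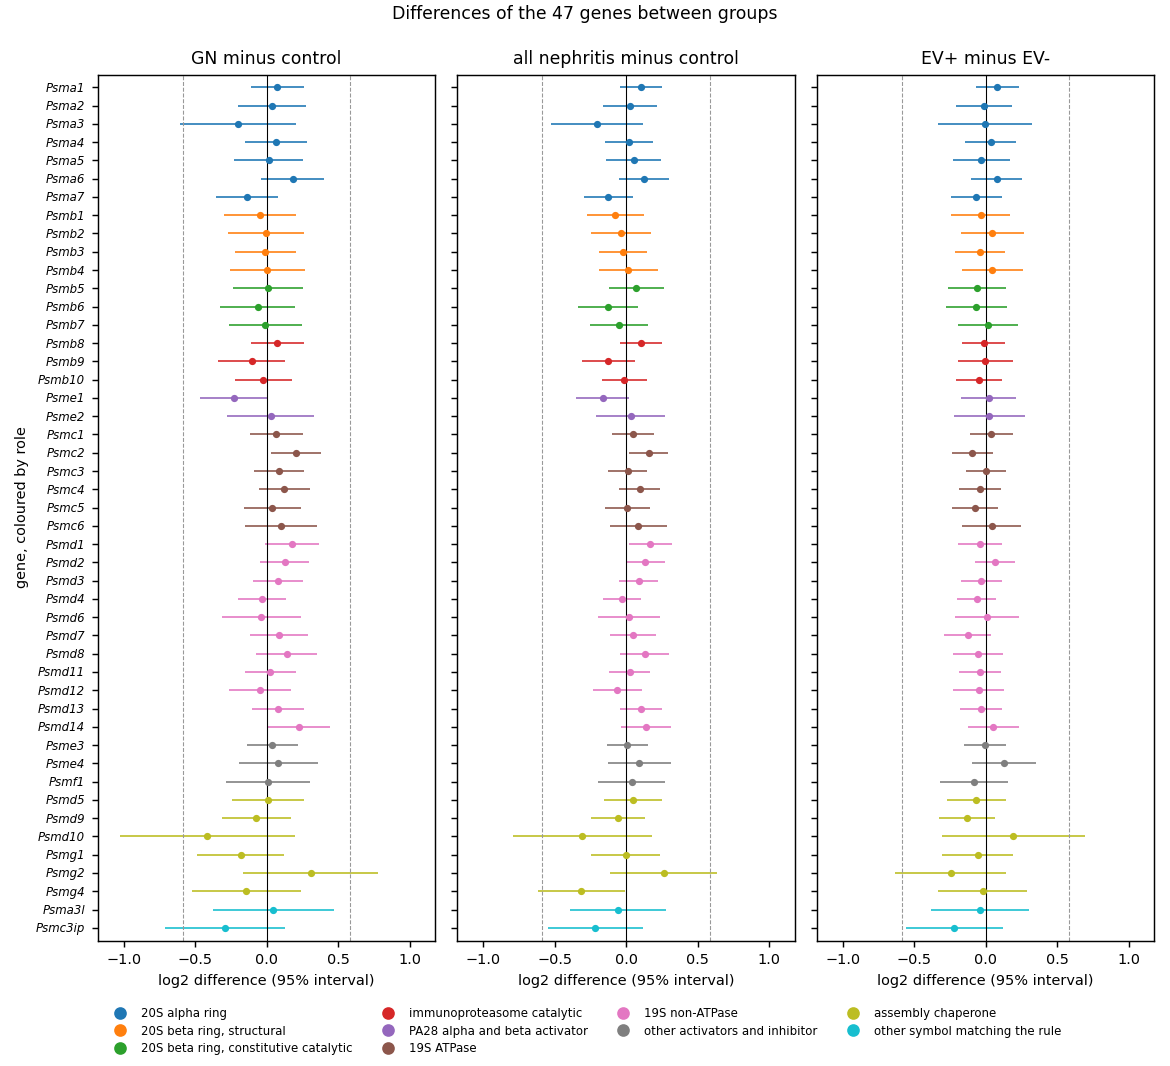
Log2 differences with 95% intervals (x axis, limma, not adjusted for the number of genes) of the 47 genes (y axis, coloured by role) for GN minus control, the mean of the 3 nephritis groups minus control, and EV+ minus EV-. Dashed lines mark 1.5-fold, and the intervals of 43, 44 and 45 of the 47 genes lie within them, the others being Psma3, Psmc3ip and 3 assembly chaperones.

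Set against control as the mean of the 3 nephritis groups, which all had glomerulonephritis, again 0 of the 47 genes passed the test, where 4.27% of all genes did. At an unadjusted p under 0.05 there were 3 proteasome genes by each of limma, both edgeR tests and DESeq2, against 14.6% of all genes by limma. The median log2 difference was 0.02 over the 47 genes and 0.00 over all genes, and 18 of the 47 had a negative difference, against 49.3% of all genes. This median was -0.03 without control replicate 1, 0.06 without control replicate 2 and -0.0020 when blocked on replicate number. All 8 nephritis libraries lay above both controls for Psmc2 and Psmd1 and below both for Psma7 and Psmg4, where 5.89% of all genes were above and 6.73% below.

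Psmd1, the scaffold subunit that binds ubiquitin receptors, measured 114 and 124 CPM in control, 132 and 136 in GN, 138, 129 and 127 in EV+, and 138, 138 and 129 in EV- macrophages. Its log2 difference was 0.17 (SE 0.0698, fold 1.12, 95% interval 1.01 to 1.25, adjusted p = 0.272 by limma). Psmc2 measured 199, 180 and 180 CPM in EV+ and 198, 201 and 195 in EV- macrophages, and its difference from control was 0.16 (SE 0.0645, adjusted p = 0.268). Psmg4, one of the chaperones that build the alpha ring, went the other way, at 29.6 and 32.3 CPM in control, 27.5 and 28.4 in GN, 23.1, 19.5 and 27.1 in EV+, and 24.0, 19.3 and 27.6 in EV- macrophages. Its log2 difference was -0.31 (SE 0.141, fold 0.805, 95% interval 0.653 to 0.994, adjusted p = 0.324). RefSeq lists 3 loci named as copies of Psmg4 and 1 of Psmd1, and the span of Psmd1 holds that of Htr2b. The immunoproteasome genes ran from a fold of 0.892 for Psme1 to 1.07 for Psmb8, with interval bounds from 0.784 to 1.21.

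Between ASC-treated macrophages and GN, no proteasome gene passed the test either. In the mean of EV+ and EV- against GN, 0 of 47 genes were called by limma, where 0.422% of all genes were, and 1 had an unadjusted p under 0.05 by limma, by both edgeR tests and by DESeq2, where 8.23% of all genes had one by limma. That gene was Psmg1, a chaperone of alpha ring assembly, which measured 26.7 and 27.9 CPM in GN, 36.5, 29.3 and 32.1 in EV+, and 31.1, 33.3 and 37.2 in EV- macrophages. It was above both GN libraries in all 6 ASC-treated libraries, the only proteasome gene to be so (5.18% of all genes were), with a log2 difference of 0.27 (SE 0.116, fold 1.20, 95% interval 1.01 to 1.43, adjusted p = 0.552). Of the controls, 1 lay just below all ASC-treated libraries, at 29.0 CPM, and the other among them, at 33.4 CPM. Psmc3, another ATPase of the base ring, and Psmd14 were below both GN libraries in all 6, where 5.61% of all genes were, with log2 differences of -0.11 and -0.12. The median log2 difference was -0.01 over the 47 genes and -0.01 over all genes, with 26 of the 47 and 51.9% of all genes negative.

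When the ASC-treated groups were set against GN one at a time, EV+ against GN gave 0 calls, where 0.122% of all genes were called, and no proteasome gene with an unadjusted p under 0.05 by limma, edgeR or DESeq2, where 7.13% of all genes had one by limma. EV- against GN also gave 0 calls, where 0.378% were called, and 1 with an unadjusted p under 0.05 by each of the 4 tests, again Psmg1 (log2 difference 0.30, adjusted p = 0.596 by limma), where 7.85% of all genes had one by limma. EV+ libraries were above both GN libraries for 2 of the 47 genes and below for 7, where 11.2% and 11.8% of all genes were. EV- libraries were above for 4 and below for 3, where 12.6% and 12.8% were. For the immunoproteasome genes the interval bounds of the fold were 0.834 and 1.25 for EV+ against GN and 0.819 and 1.23 for EV- against GN. Negative differences made up 31 of the 47 for EV+ against GN (52.8% of all genes) and 23 of the 47 for EV- against GN (49.9% of all genes). These comparisons share the GN libraries, so their values are not independent.

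EV+ against EV- compared macrophages positive and negative for the dye of the donor cells. None of the 47 passed the test (limma, adjusted p = 0.9997 for each), where 0.0222% of all genes did. In a fit of these 6 libraries alone that paired them by replicate number, 0 of the 47 passed and 0 had an unadjusted p under 0.05, where 0.544% of all genes passed. Without the pairing, none had an unadjusted p under 0.05 by limma, edgeR or DESeq2, where 4.57% of all genes had one by limma. The difference was negative for 31 of the 47, against 52.6% of all genes, with a median of -0.03 against -0.01. The folds of EV+ over EV- were 0.990 for Psmb8 (95% interval 0.891 to 1.10), 0.999 for Psmb9 (0.874 to 1.14), 0.970 for Psmb10 (0.868 to 1.08), 1.02 for Psme1 (0.889 to 1.16) and 1.02 for Psme2 (0.858 to 1.21). For Psmb5, Psmb6 and Psmb7 they were 0.960, 0.956 and 1.01. The lowest p belonged to Psmd7, the partner of Psmd14 in the cap's lid (log2 difference -0.13, SE 0.0764, fold 0.917, 95% interval 0.818 to 1.028), and the assembly chaperone Psmd9 and Psmc2 followed with log2 differences of -0.13 and -0.09. Psmc3ip, the one symbol with a non-proteasomal role, was also the one whose EV+ and EV- libraries did not overlap, at 5.39, 5.56 and 4.996 against 6.51, 6.37 and 6.15 CPM, where 4.65% of all genes were lower in this way and 4.25% higher.

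The small size of these differences went with a small spread over all libraries. The highest of the 10 libraries exceeded the lowest by a median of 1.24-fold over the 46 proteasome genes with a mean of at least 5 CPM, and by under 1.5-fold for 95.7% of them. Over all 7193 genes with such a mean the median was 1.41-fold, and 63.1% stayed under 1.5-fold. These genes were not matched to the proteasome genes in level, on which the spread also depends. The widest spread was 1.995-fold for Psmg2, an assembly chaperone at 11.02 to 21.98 CPM, and the narrowest 1.11-fold for Psmd11 and Psmd4 of the cap. Among the 4 groups as a whole, 0 of 47 genes were called by limma's F test, where 2.57% of all genes were, and none had an unadjusted p under 0.05 by any of the 4 tests, where 12% of all genes had one by limma. The lowest were Psmg4 (adjusted p = 0.473), Psmc2 (0.478) and Psmd1 (0.6).

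Core and cap genes differed in part in which libraries were low. EV+ replicate 2 was the lowest of the 10 libraries for 20 of the 47 genes, against 15.6% of all genes. It was the lowest for 12 of the 19 core and PA28 genes and for 6 of the 17 cap genes (35.3%). The 14 constitutive core genes summed to 2296 CPM in EV+ replicate 2 and 2420 CPM in EV- replicate 2, and to between 2512 and 2787 CPM in the other 8 libraries. The 5 immunoproteasome genes showed the same order, with 2031 and 2176 CPM in those libraries and 2228 to 2529 CPM in the others. The 17 cap genes did not show that order. They summed to 2629 CPM in EV+ replicate 2, above control replicate 1 alone (2547 CPM). In EV- replicate 2 they summed to 2769 CPM, within the 2711 to 2807 CPM of the others. The mean log2 level of the core minus that of the cap, whose absolute size depends on transcript length, was 0.06 to 0.19 in 8 libraries and -0.02 and -0.03 in EV+ and EV- replicate 2.

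The summed level of 82 cytosolic ribosomal protein genes was also lowest in those libraries, at 12342 CPM in EV+ replicate 2 and 13872 CPM in EV- replicate 2 against 15243 to 18929 CPM in the others, and its part in the core gene values was not tested. Deviations of the 47 genes from their group means correlated between EV+ and EV- libraries of the same number at 0.495, 0.608 and 0.612 (Pearson, across 47 genes that share each library's scaling and are not independent). With both libraries numbered 2 left out, a choice made after seeing the data, still no proteasome gene was called in any comparison, and the lowest adjusted p of any was 0.126, for the alpha ring gene Psma6 in all nephritis groups against control. Leaving out EV- replicate 1, where the natural killer and T cell markers summed to 791 CPM, also gave no call of a proteasome gene, with a lowest adjusted p of 0.308.

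**Figure D4:**
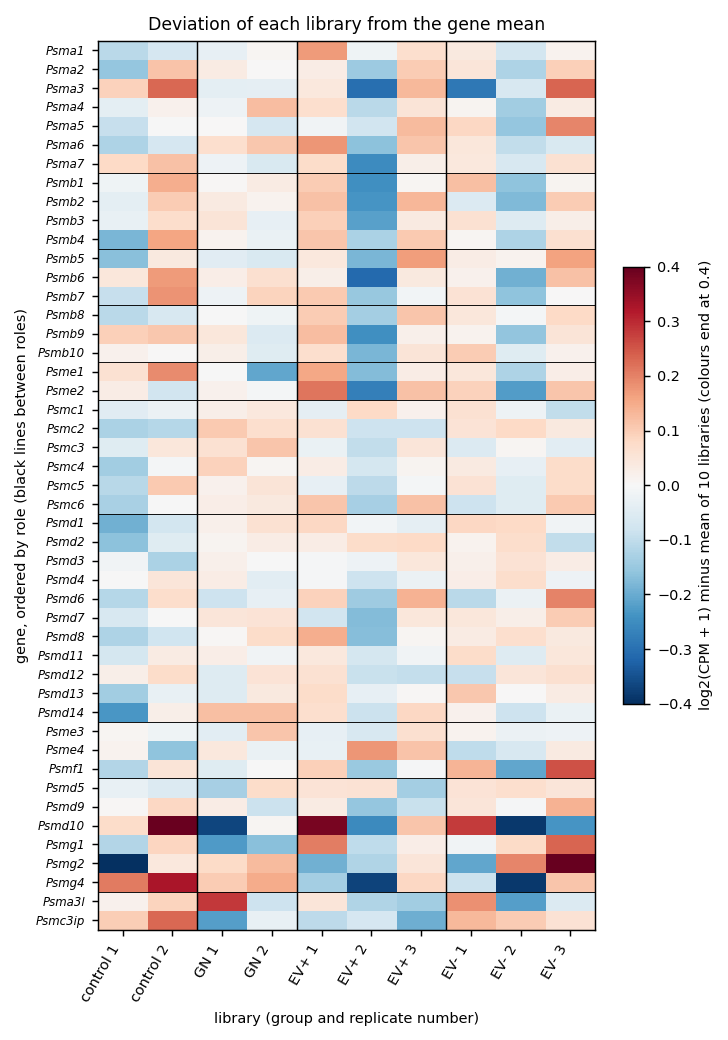
Deviation of each library (x axis) from the mean of 10 libraries for the 47 genes (y axis, ordered by role), in log2(CPM + 1), with colours ending at 0.4 above or below the mean. EV+ 2 and EV- 2 are blue for most core and PA28 genes at the top, where their summed core levels were 2296 and 2420 CPM, and the cap genes below are paler in the same columns.

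Some genes that act beside the proteasome did pass the test. Of 15 listed partners of the proteasome outside the Psm symbols, 2 were called in all nephritis groups against control, both lower, and of 12 listed heat shock genes 2 were called, both lower, where 4.27% of all genes were called. None of the 12 listed genes of interferon signalling, 15 of MHC class I peptide loading and 7 transcription factors of proteasome genes was called in this comparison (limma), and 5, 2 and 0 of them had an unadjusted p under 0.05, against 14.6% of all genes. In the same comparison, edgeR's quasi-likelihood test called none of these 3 lists either, and its likelihood-ratio test and DESeq2 called 1 interferon signalling gene each, Irf1. In EV- against GN, the latter 2 tests also called 1 interferon signalling gene each (126 and 113 of all genes). They called 1 and 2 partners in GN against control (292 and 294 of all genes). Limma called no list gene in either comparison. In EV+ against EV-, 0 of the 61 genes of these 5 lists were called by limma, both edgeR tests or DESeq2, and each gave 1 with an unadjusted p under 0.05, where limma gave 4.57% of all genes.

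Zfand5 and Zfand2a, zinc finger proteins that bind the proteasome and of which Zfand2a is induced when proteins misfold, were lower in nephritis. Zfand5 measured 264 and 232 CPM in control, 197 and 197 in GN, 176, 204 and 205 in EV+, and 185, 202 and 217 in EV- macrophages (log2 difference -0.32, SE 0.0815, adjusted p = 0.0536 by limma). Zfand2a measured 63.4 and 76.3 CPM in control, 47.1 and 44.7 in GN, 37.2, 25.0 and 22.5 in EV+, and 53.6, 23.3 and 24.3 in EV- macrophages (log2 difference -1.01, SE 0.246, adjusted p = 0.0456). All 8 nephritis libraries lay below both controls for each gene, as for 6.73% of all genes. Both genes were named because they passed the test in this comparison, so this adds no separate evidence. The Zfand5 call was lost without either control (adjusted p = 0.433 and 0.121) or either GN library (0.110 and 0.120), and the Zfand2a call without either control (0.187 and 0.406) or GN replicate 2 (0.109) and with DESeq2 (0.106).

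Both called heat shock genes were lower in nephritis. The cochaperone Dnajb1 measured 246 and 242 CPM in control, 148 and 151 in GN, 157, 107 and 107 in EV+, and 227, 106 and 124 in EV- macrophages (log2 difference -0.82, SE 0.208, adjusted p = 0.0536 by limma). The chaperone Hsp90aa1 measured 11.3 and 13.0 CPM in control, 6.43 and 7.98 in GN, 7.31, 3.58 and 4.33 in EV+, and 8.41, 4.79 and 5.45 in EV- macrophages (log2 difference -0.91, SE 0.231, adjusted p = 0.0543). Replicate 1 was the highest of its group for Zfand2a, Dnajb1 and Hsp90aa1 in both EV+ and EV-, and the inducible chaperone Hspa1a was at 285 and 525 CPM there against 73.9 to 115 CPM in the other 4 ASC-treated libraries and 566 and 619 CPM in control. Hspa1a itself was not called (log2 difference -1.54, adjusted p = 0.144) but passed without EV+ replicate 1 (0.0371) or EV- replicate 1 (0.0149), with edgeR's likelihood-ratio test (0.0961) and when blocked on replicate number (0.0565). Both calls were lost without either control (adjusted p of 0.219 to 0.418 over both genes) and without GN replicate 1 (0.110 and 0.119), and that of Dnajb1 also without GN replicate 2 (0.116) and with DESeq2 (0.164). Without the intensity trend all of these 4 genes missed the threshold (0.126 to 0.194).

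**Figure D5:**
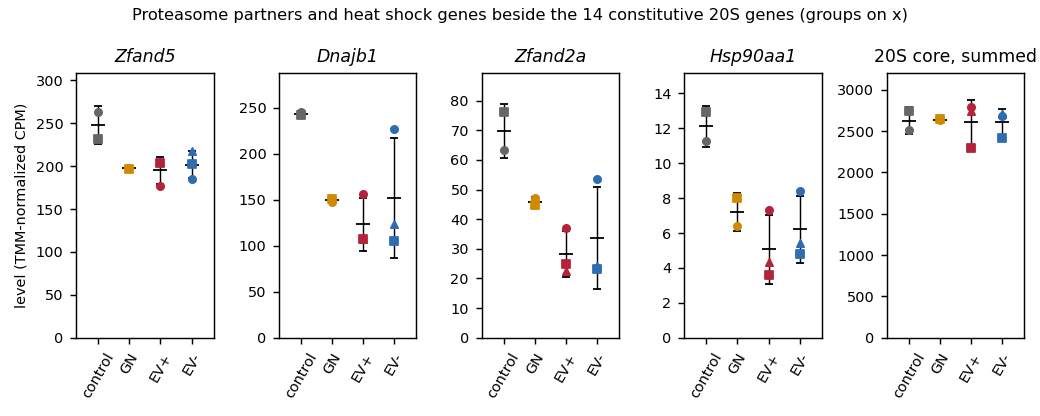
Level in TMM-normalized CPM (y axis, each panel from 0) of Zfand5, Dnajb1, Zfand2a and Hsp90aa1 and the summed level of the 14 constitutive core genes, by group (x axis), with 1 point per library shaped by replicate number and bars for the mean and SD. The 8 nephritis libraries lie below both controls in the first 4 panels, while the core sums of 2296 to 2787 CPM overlap between the groups. The genes of those 4 panels were chosen because they passed the test, and 6.73% of all genes lie below both controls in this way.

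Neither Irf1 nor Tap1 was called by limma in all nephritis groups against control. Irf1, a factor that binds the ISRE, measured 845 and 642 CPM in control, 627 and 524 in GN, 517, 629 and 644 in EV+, and 558, 561 and 663 in EV- macrophages. Its log2 difference was -0.33 (SE 0.112, fold 0.797, adjusted p = 0.172 by limma), and it passed the threshold when blocked on replicate number (adjusted p = 0.0829), with edgeR's likelihood-ratio test (0.0901) and with DESeq2 (0.0637). The block relies on replicate numbers that were not taken to pair control with the other groups. Without control replicate 1, the highest library, the log2 difference of Irf1 was -0.13. Tap1, the peptide transporter gene that RefSeq places between Psmb8 and Psmb9, measured 580 and 494 CPM in control, 535 and 482 in GN, 477 to 487 in EV+ and 444 to 502 in EV- macrophages (log2 difference -0.13, adjusted p = 0.443). In EV+ against EV- the folds were 1.003 for Irf1 (95% interval 0.845 to 1.19) and 1.01 for Tap1 (0.906 to 1.13).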

How the data were processed

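The authors aligned paired-end reads of SMART-Seq v4 libraries to the rat genome (rn6 per the submitters' processing notes) with STAR (version 2.5.3), counted them on RefSeq genes with HTSeq (version 0.6.0), dropped genes that never reached 1 CPM and applied TMM scaling in edgeR. The deposited table holds this normalized signal (TMM-normalized CPM) of 9003 genes, from which whole reads were recovered for 100% of values (tolerance 0.01). The kit is not stated to mark strand. Of the symbols, 18 had been turned into dates. Floors of 3 reads cover counting error only, since no molecular identifiers were used.

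Genes were tested on log2(CPM + 1) with limma (version 3.58.1, R version 4.3.3), using an intensity trend, a design of the 4 groups over all 10 libraries (6 residual degrees of freedom) and Benjamini-Hochberg adjustment over the 9003 genes, at an FDR under 0.1. Fold changes are on the log2(CPM + 1) scale and are understated for low genes. edgeR (version 4.0.16) and DESeq2 (version 1.42.0) on the recovered reads, RLE size factors, a pseudocount of 0.1, a filter of at least 1 CPM in 2 libraries, no trend, only the groups compared, the replicate number as a block and each library left out were alternatives. Pair ratios were compared with exact permutation tests. The procedure was tested on simulated data for all nephritis groups against control only. It recovered 100% of 2-fold changes but 43.7% of changes of a single smaller size, with 8.46% false calls. Both sizes exceeded every difference of the proteasome genes in that comparison (folds of 0.805 to 1.20), so recovery of differences that small was not tested. The simulation gave all genes the same spread setting and no effect shared between same-numbered libraries. Replicates differed beyond sampling noise (chi-square per degree of freedom of 13.5 to 46.0).

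The 47 genes, the lists and the tests were chosen with earlier results of these data known. Named were the immunoproteasome and constitutive catalytic genes, any proteasome gene past the threshold (there was none), the 3 genes with the lowest p in each comparison, and list genes past the threshold. Other genes with values in the text, such as Hspa1a, Irf1, Tap1, Psmc3ip and Psmg2, were added after their values were seen. The lists were proteasome partners, heat shock, interferon signalling, MHC class I loading, transcription factors and cell type markers. Some genes of related function are not reported here. Neither the labels nor the methods pair the libraries. Residuals of same-numbered EV+ and EV- libraries correlated at 0.309, 0.423 and 0.236, so the numbers were taken to pair these groups, while those of control and GN correlated at 0.109. Those of control or GN with same-numbered EV+ or EV- libraries correlated at -0.238 to 0.0609. The block over all 10 libraries nonetheless treats the numbers as shared by every group. Promoter windows are RefSeq's on GRCr8.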

Additional observations from a re-analysis of the deposited data

How the results depend on the processing

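No proteasome gene was called in any of the 7 comparisons under any alternative, including each of the 10 libraries left out, both libraries numbered 2 left out and EV+ and EV- libraries alone with the replicate block (both, like the within-pair test of the ratios, chosen after seeing the data). The lowest adjusted p of any proteasome gene was 0.126 over all of these, and 0.129 with the replicate block (Psmg4, all nephritis groups against control, log2 difference -0.39), which changed no call of a proteasome gene. The block added calls of Irf1 (adjusted p = 0.0829) and Hspa1a (0.0565). Both are calls against control, whose replicate numbers were not taken to pair it with the other groups. With a lone control or GN library, that library was assumed to vary like the other groups.

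The within-pair test left the EV+ against EV- ratios at 0.05, 0.06 and -0.06 and past no threshold. The pair ratios changed sign when single libraries were left out, never past the threshold. For Psmb8 to Psmb5 the log2 differences ran from -0.0529 to 0.11 for all nephritis groups against control, from -0.0152 to 0.14 for GN against control, from -0.06 to -0.04 for ASC-treated against GN and from 0.02 to 0.08 for EV+ against EV-. For Psmb9 to Psmb6 they ran from -0.0468 to 0.0629, from -0.11 to 0.0263, from -0.00132 to 0.14 and from 0.04 to 0.10 in the same order. For Psmb10 to Psmb7 they ran from -0.10 to 0.19, from -0.16 to 0.13, from -0.0145 to 0.16 and from -0.09 to -0.03.

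Near zero, signs also turned for single genes. In EV+ against EV-, Psmb9 went from -0.00204 to 0.00322 with edgeR's quasi-likelihood test, 0.00323 with its likelihood-ratio test and 0.00385 with DESeq2, and without both libraries numbered 2 the differences were 0.0424 for Psmb8, 0.0396 for Psmb9 and 0.00169 for Psmb10. With libraries left out singly they ran from -0.0570 to 0.0663 for Psmb8, from -0.0810 to 0.10 for Psmb9, from -0.0883 to 0.0377 for Psmb10, from -0.0535 to 0.11 for Psme1 and from -0.0816 to 0.17 for Psme2. In GN against control they ran from -0.0575 to 0.0122 for Psmb10 and from -0.0239 to 0.0822 for Psme2. The median over the 47 genes in EV+ against EV- was -0.03 and became 0.04 without EV+ replicate 2. The cause was not tested.

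Counts over all genes moved by over 1.5 times in both directions. With edgeR's likelihood-ratio test and DESeq2, 158 in GN against control became 292 and 294, 11 in EV+ against GN became 43 and 41, 34 in EV- against GN became 126 and 113, 38 in ASC-treated against GN became 94 and 87, 2 in EV+ against EV- became 57 and 34, and 231 among the 4 groups became 616 and 543. Without the intensity trend these counts fell to 60, 0, 6, 4, 0 and 93, and 384 in all nephritis groups against control fell to 238. The replicate block gave 30 in EV+ against GN, 53 in EV- against GN and 5 in EV+ against EV-, or 49 with the EV libraries alone. Without both libraries numbered 2 there were 260 in GN against control, 22 in EV+ against GN and 0 in EV+ against EV-, and a pseudocount of 0.1 gave 4 in the last. With single libraries left out the counts ran from 34 to 214 in GN against control, from 135 to 457 in all nephritis groups against control, from 3 to 47 in ASC-treated against GN, from 0 to 18 in EV+ against GN, from 7 to 42 in EV- against GN, from 0 to 5 in EV+ against EV- and from 97 to 266 among the 4 groups. Having 2 or 3 libraries a group limits the differences these tests can detect, and genes that stayed under 1 CPM were not listed.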
